A study of Homo sapiens with 8 samples.

Results

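Genes of the integrated stress response and of serine synthesis were measured in 8 RNA-seq libraries of H9, an established line of human embryonic stem cells (hESCs). The 10 genes were taken by name, as ATF4 and genes known from its pathway: ATF4, DDIT3, TRIB3, CHAC1, SESN2, DDIT4, ASNS, PSAT1, PHGDH and SLC7A11. They are 10 of the 57773 genes with counts, and all 10 were among the 23474 genes expressed highly enough to be tested. There were 2 replicates of each of 4 conditions. WT cells carried the genotype label wild type (CHD7-HA) and were untreated. CHD7 knockout cells were labelled CHD7 -/- and were untreated. HERVH element deleted cells lacked a single copy of the endogenous retrovirus HERVH on chromosome 2 and were untreated. HERVH knockdown cells had the WT genotype and were treated for 24 h with LNA-GapmeRs, antisense oligonucleotides that direct the cleavage of HERVH RNA. The question put to the genes was whether GapmeR-treated or edited cells showed this stress response.

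For the knockdown, the methods describe cells brought to single cells, kept with a ROCK inhibitor and transfected by lipid, whereas the WT label says untreated. GapmeRs, transfection and handling therefore cannot be told apart in the comparison with WT, and cells given a control GapmeR were not analysed here. The HA tag of the WT label was itself put into CHD7 by genome editing (CRISPR-Cas9). Edited cells here means the CHD7 knockout and HERVH element deleted cells. The methods describe puromycin selection and picked colonies for edited lines, and the labels do not say whether replicates were separate clones or separate cultures. P-values then measure only the spread between these libraries. In bulk RNA, a change in the share of cells with a transcript and a change in its amount per cell cannot be told apart.

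The integrated stress response begins with kinases that sense unfolded proteins, missing amino acids, double-stranded RNA or haem shortage and phosphorylate the translation factor eIF2. Bulk translation then slows, while the mRNA of the transcription factor ATF4 is translated better, so ATF4 is controlled largely at translation and its mRNA is only a partial readout. ATF4 pairs with C/EBP family proteins on composite sites and switches on genes for amino acid synthesis, amino acid uptake and tRNA charging, together with the factors DDIT3 and TRIB3. Stem cells that divide fast use the serine pathway for nucleotides and methyl groups also when they are not stressed.

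ATF4 sites have the core TGATGNAA, which was searched on either strand in the RefSeq promoter windows (GRCh38.p14) from 250 bases before to 50 bases after the gene start, 300 bases in all. Of the 10 genes, 9 had a window and 2 of these, ASNS and CHAC1, held the core, compared with 4.46% of 27305 genes with a window (3.62% of all 35116 windows). The longer forms TGATGNAAC and TGATGNAAT were found in the same 2 genes and in 2.18% of genes (1.77% of windows). SLC7A11 had no window. The surroundings of both matches are shown because CHAC1 and ASNS had among the largest differences in the knockdown, with the core in capitals and each sequence written along its gene's strand. The ASNS stretch is chr7:97872443-97872502 on the minus strand, and its core starts 68 bases before the gene start. The CHAC1 stretch is chr15:40953236-40953295 on the plus strand, where the core lies on the opposite strand and so reads TTGCATCA, starting 209 bases before the gene start.
ASNS: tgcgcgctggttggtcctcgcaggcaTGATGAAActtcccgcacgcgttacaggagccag
CHAC1: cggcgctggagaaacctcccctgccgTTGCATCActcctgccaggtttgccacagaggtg

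The libraries held 14802049 to 23156445 reads counted on genes, so that 3 counts, taken as the limit of detection, corresponded to 0.128 to 0.218 CPM (counts per library scaled to a common size). This limit covers counting error only. CHD7 itself had 651 and 650 CPM in WT and 197 and 197 CPM in the CHD7 knockout libraries, which were lower by 1.72 on the log2 scale (FDR 2.25e-05, edgeR quasi-likelihood test). All 8 pluripotency markers examined were detected, and their summed level was 6270 to 6290 CPM in WT, 6470 to 7690 in CHD7 knockout, 7080 to 7090 in HERVH knockdown and 6420 to 6460 in HERVH element deleted libraries. The knockdown replicates differed most from each other, with a median SD of log2 CPM of 0.246 over genes against 0.118 in WT, 0.103 in CHD7 knockout and 0.0757 in HERVH element deleted cells. The edgeR fit used 1 estimate of the spread per gene for all 4 conditions. ATF4 thus had an SE of 0.212 in each comparison with WT, with CPM SDs of 155 in the knockdown and 9.54 in WT. Intervals of the knockdown comparisons may therefore be too narrow, and those of edited cells against WT too wide.

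In WT cells the 10 genes spanned a wide range when counts were divided by exon length as well as by depth (RPKM, per kilobase of all annotated exons). The aminotransferase of serine synthesis, PSAT1, was highest at 169 ± 11.2 RPKM (SD, n = 2). ATF4 followed at 153 ± 3.65, PHGDH at 54.5 ± 3.29 and ASNS at 41.4 ± 10.5 RPKM. The order then ran through CHAC1 (23.0 ± 4.73 RPKM), SESN2 (19.4 ± 3.89), DDIT4 (7.70 ± 2.44) and SLC7A11 (7.28 ± 0.912) to TRIB3 (4.61 ± 0.0116) and DDIT3 (2.77 ± 0.880). Among neighbours in this order, the libraries of CHAC1 and SESN2 overlapped, as did those of DDIT4 and SLC7A11, and those of the other pairs did not. The order depends on the exon lengths used, which were 9187 bases for PHGDH and 2206 for PSAT1. By CPM alone, PHGDH was highest in WT with a mean of 501, before ATF4 at 400 and PSAT1 at 373. The enzymes and ATF4 mRNA were therefore abundant in untreated hESCs, whereas the stress factors DDIT3 and TRIB3 were the lowest of the 10. With 41 to 143 counts per library, DDIT3 was also the least precisely measured. DDIT3 overlaps the ends of MARS1 and MBD6 on the opposite strand, and since the strand setting of the counting is not given in the sources used here, reads of the shared ends may not have been assigned correctly. ATF4, ASNS and PSAT1 have annotated pseudogenes, which took at most 111, 48 and 24 counts per library in sum against at least 5006, 1696 and 3485 for the genes.

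**Figure D1:**
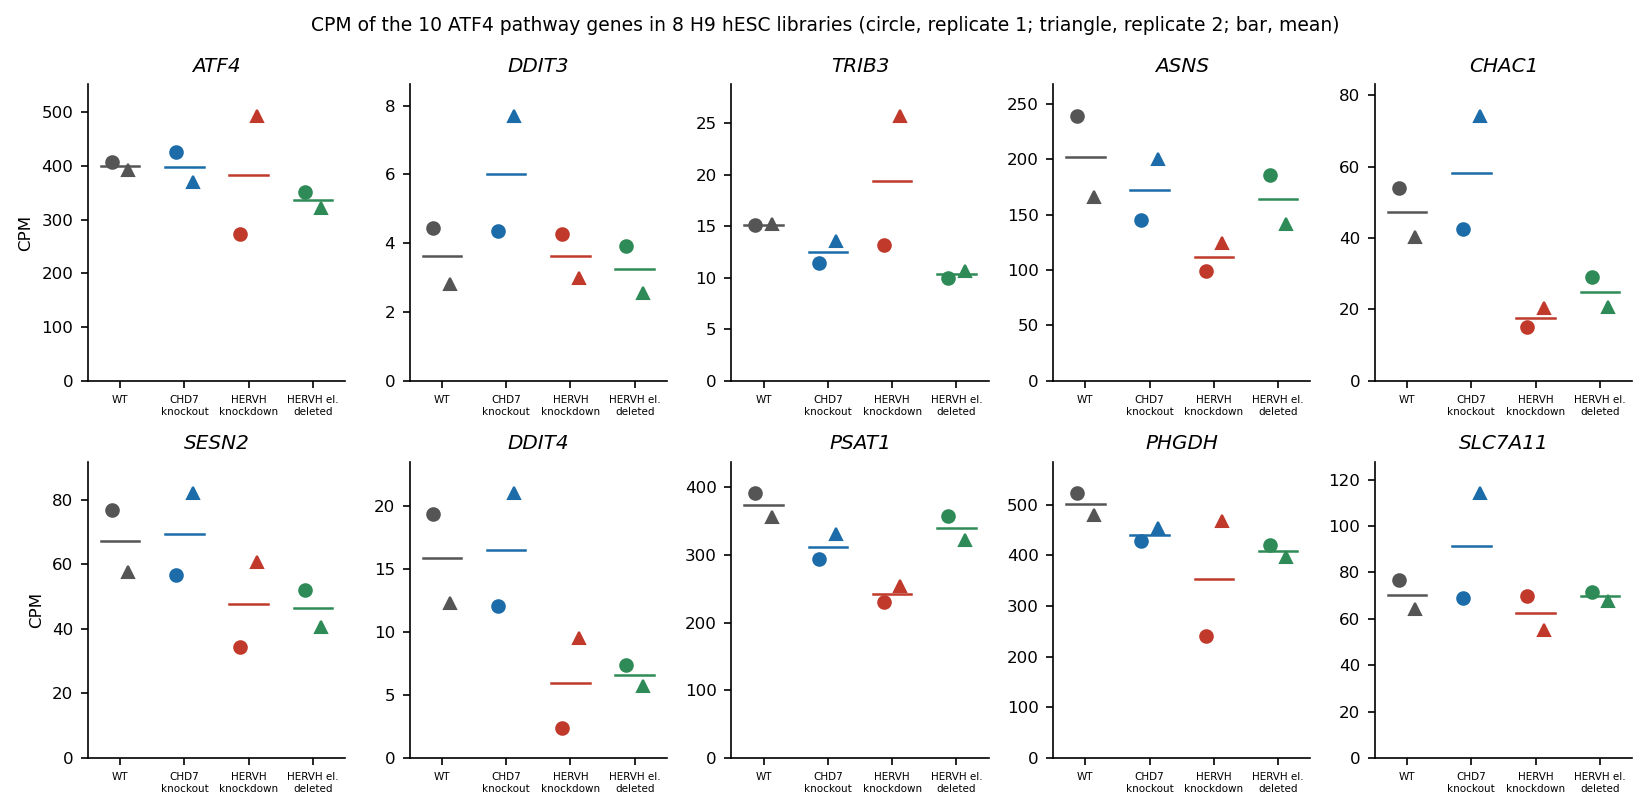
CPM (y axes, linear from 0, 1 panel per gene) of the 10 genes in the 4 conditions (x axes), with circles for replicate 1, triangles for replicate 2 and bars for group means. CHAC1 and PSAT1 lie lower in both HERVH knockdown libraries than in both WT libraries, while ATF4 lies on either side of WT.

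HERVH knockdown was compared with WT first. None of the 10 genes rose, while CHAC1 and PSAT1 fell at an FDR below 0.05 (edgeR quasi-likelihood test, Benjamini-Hochberg over all genes tested). Over all genes, 0.618% were called higher and 1.53% lower at this threshold. Of the genes called, 71.2% were lower, and 60.2% after a correction for GC content. At the stricter rule for DEGs (FDR below 0.01 and at least a 2-fold change), 0 of the 10 genes and 0.217% of all genes were called. At an unadjusted p below 0.05, 5 of the 10 genes differed, all 5 of them lower, beside 19% of all genes. DESeq2 called 3 of the 10 genes lower at an FDR below 0.05, ASNS in addition to CHAC1 and PSAT1, and 1 as a DEG. DESeq2 also called more genes in all, with 4.63% lower, 2.73% higher and 2.16% as DEGs among those to which it gave an FDR.

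ATF4 mRNA had 407 and 393 CPM in WT and 274 and 493 CPM in the knockdown replicates 1 and 2. One knockdown library was thus below and the other above both WT libraries, and the log2 fold change was -0.06 (SE 0.212, 95% interval -0.52 to 0.40, FDR 0.905, edgeR). Without knockdown replicate 2 it was -0.55 (FDR 0.00904) and without replicate 1 it was 0.25 (FDR 0.206). In such fits the knockdown is 1 library, which is assumed to vary like the other groups, so their FDRs are no replicate check. DDIT3, which encodes the proapoptotic factor CHOP, had 4.43 and 2.81 CPM in WT and 4.27 and 2.99 CPM in the knockdown. Its groups overlapped fully, but the interval of the log2 difference was wide, from -0.81 to 0.83. TRIB3, a pseudokinase that feeds back on ATF4 and AKT, had 15.1 and 15.2 CPM in WT and 13.2 and 25.7 CPM in the knockdown. Only replicate 2 was above WT, and the log2 fold change of 0.35 (interval -0.23 to 0.94) had an FDR of 0.507 in edgeR. With replicate 2 as the only knockdown library the difference was 0.71 (FDR 0.0220), with the same limit as for ATF4.

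CHAC1, a glutathione-degrading enzyme and a target of ATF4, had 54.0 and 40.3 CPM in WT and 15.1 and 20.3 CPM in the knockdown. Both knockdown libraries were far below both WT libraries, and CHAC1 fell by 62.6% (log2 fold change -1.42, SE 0.277, FDR 0.0225, edgeR). DDIT4, an inhibitor of mTORC1 signalling also called REDD1, had 19.4 and 12.3 CPM in WT and 2.35 and 9.54 CPM in the knockdown. The knockdown libraries were both lower but 4.05-fold apart, and the log2 fold change of -1.44 had an SE of 0.471 and an FDR of 0.127. It was -2.76 without knockdown replicate 2 and -0.78 without replicate 1. SESN2, a leucine sensor that restrains mTORC1, had 76.8 and 57.8 CPM in WT against 34.3 and 60.9 CPM in the knockdown. Its groups overlapped (log2 fold change -0.50, interval -1.07 to 0.06, FDR 0.320, edgeR).

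PSAT1 had 391 and 356 CPM in WT and 231 and 254 CPM in the knockdown, and fell by 35% (log2 fold change -0.62, SE 0.143, FDR 0.0407, edgeR). Its knockdown replicates lay closer together than those of any other of the 10 genes. PHGDH, the first enzyme of the serine pathway, had 522 and 479 CPM in WT and 240 and 467 CPM in the knockdown. Replicate 2 was just below WT and replicate 1 far below, so that the log2 fold change of -0.50 did not pass the test (SE 0.227, FDR 0.249, edgeR). ASNS, which makes asparagine, had 239 and 166 CPM in WT and 98.9 and 124 CPM in the knockdown. Both knockdown libraries were below WT, and the log2 fold change of -0.87 (SE 0.215) just missed the threshold with an FDR of 0.0550 in edgeR. SLC7A11, the cystine importer that supplies glutathione synthesis, had 76.5 and 64.0 CPM in WT and 70.0 and 55.2 CPM in the knockdown. These groups overlapped, with a log2 fold change of -0.17 (interval -0.64 to 0.31).

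In all, 5 of the 10 genes had both knockdown libraries below both WT libraries (ASNS, CHAC1, DDIT4, PSAT1 and PHGDH), compared with 22.3% of all genes tested. Both were above WT in 0 of the 10 genes, compared with 5285 of the 23474 genes tested. The median log2 fold change of the 10 genes was -0.50, beside 0.04 for all genes, and it was -0.36 without knockdown replicate 1 and -0.84 without replicate 2. Both calls were lost without WT replicate 1, where the FDR was 0.240 for CHAC1 and 0.399 for PSAT1 and 4 of all genes were called rather than 504. PSAT1 was also not called without WT replicate 2 (FDR 0.0921) or in a fit of only the 4 libraries compared (FDR 0.206).

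**Figure D2:**
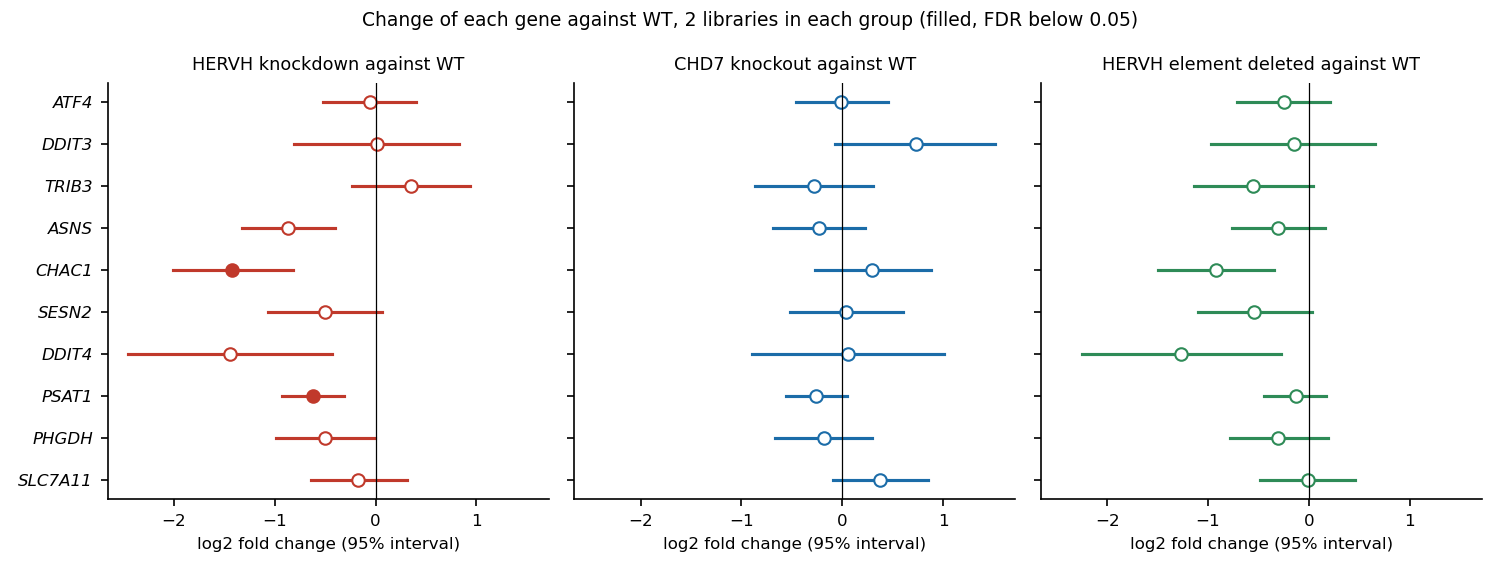
Log2 fold change against WT (x axis) with its 95% interval from edgeR for each of the 10 genes (y axis) in HERVH knockdown, CHD7 knockout and HERVH element deleted cells, filled where the FDR was below 0.05. Filled points are CHAC1 and PSAT1 in the knockdown, at -1.42 and -0.62, and none in the edited cells.

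The difference between the knockdown replicates followed the GC content of the genes. From replicate 1 to replicate 2, the median difference in log2 CPM over all genes went from -0.38 in the quintile of genes with the lowest exonic GC content to 0.65 in the quintile with the highest, and in the other 3 conditions these medians stayed between -0.11 and 0.18. ATF4, TRIB3, CHAC1, SESN2 and DDIT4 belong to the highest quintile, with exonic GC contents of 57.5% to 62.7%. Their replicate differences in the knockdown were 0.85, 0.95, 0.43, 0.83 and 1.97. PHGDH (51.8% GC) differed by 0.96, ASNS (43.2%) by 0.32, PSAT1 (42.5%) by 0.13, DDIT3 (48.7%) by -0.50 and SLC7A11 (35.4%) by -0.34. CHAC1 and DDIT3 thus lay below the median of their quintile and the others above it, with DDIT4 farthest from it. When library-specific GC trends were removed, 6 of the 10 genes were called lower at an FDR below 0.05 (ASNS -0.78, CHAC1 -1.62, SESN2 -0.70, DDIT4 -1.69, PSAT1 -0.54 and PHGDH -0.58 on the log2 scale, edgeR) and 0 higher. The same correction raised the calls over all genes from 1.53% to 5.17% lower and from 0.618% to 3.42% higher. ATF4 then had a log2 fold change of -0.23 (FDR 0.329) and TRIB3 of 0.16 (FDR 0.649).

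**Figure D3:**
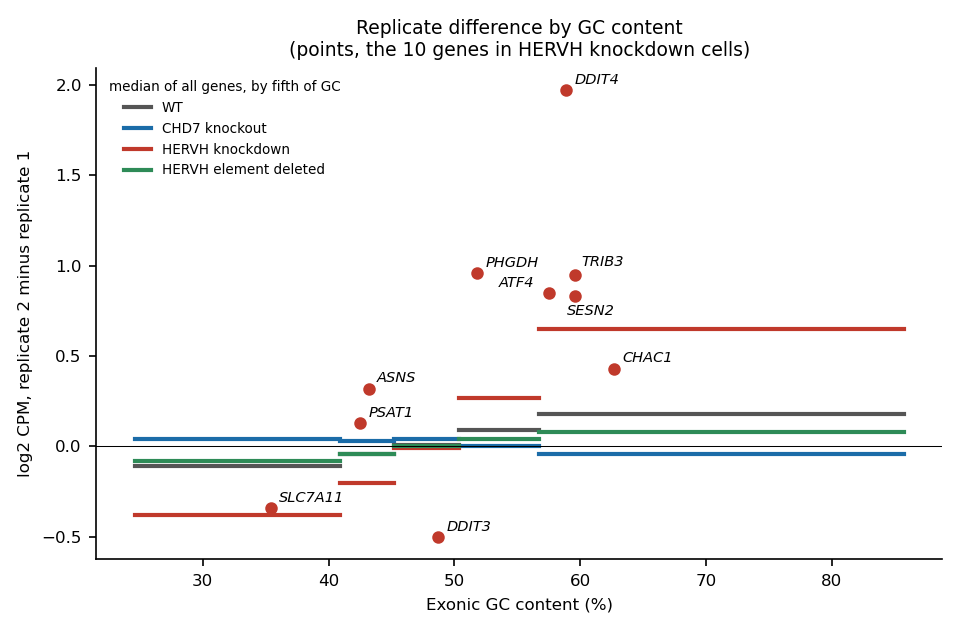
Difference in log2 CPM between replicate 2 and replicate 1 (y axis) against exonic GC content in percent (x axis), with points for the 10 genes in HERVH knockdown cells and horizontal lines for the median of all genes in each GC quintile of each condition. The line of the knockdown climbs from -0.38 to 0.65, and DDIT4 lies above it at 1.97.

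CHD7 knockout cells were compared with WT next. None of the 10 genes was called in either direction (edgeR), at an FDR below 0.05, as a DEG or at an unadjusted p below 0.05, and DESeq2 also called 0. Over all genes, 1.19% were called higher and 0.613% lower, 0.571% were DEGs and 10.9% had an unadjusted p below 0.05 (edgeR). ATF4 had 426 and 370 CPM in the knockout libraries, on either side of the WT values, and a log2 fold change of -0.01 (interval -0.46 to 0.45). CHAC1 had 42.5 and 74.1 CPM, and its log2 fold change was 0.30 (interval -0.27 to 0.88). DDIT3 had 4.34 and 7.69 CPM, and at 0.73 its log2 fold change was the largest of the 10 (SE 0.369, interval -0.07 to 1.52, FDR 0.527, edgeR).

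In CHD7 knockout cells several genes were higher in replicate 2 than in replicate 1. SLC7A11 had 68.9 CPM in replicate 1 and 114 CPM in replicate 2 (log2 fold change 0.38, interval -0.09 to 0.85), and DDIT4 had 12.1 and 21.0 CPM (0.06, interval -0.89 to 1.01). SESN2 had 56.8 and 82.0 CPM (0.04, interval -0.52 to 0.60) and ASNS 145 and 200 CPM (-0.23, interval -0.69 to 0.23). Replicate 2 was above both WT libraries for SLC7A11, DDIT4 and SESN2, and between them for ASNS. TRIB3 at 11.4 and 13.6 CPM, PSAT1 at 294 and 331 CPM and PHGDH at 429 and 453 CPM had both libraries below both WT libraries. These were 3 of the 10 genes, beside 22.4% of all genes tested. Their log2 fold changes were -0.28, -0.26 and -0.18, with FDRs of 0.839, 0.593 and 0.883 (edgeR). The median of the 10 genes was 0.02, from -0.21 to 0.19 when 1 replicate was left out, and that of all genes was -0.01.

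HERVH element deleted cells showed lower values of all 10 genes on average, and none was called (edgeR and DESeq2, 0 at an FDR below 0.05 and 0 DEGs). The log2 fold changes ran from -1.27 for DDIT4 to -0.01 for SLC7A11, and 53.1% of all genes tested had a negative value. Few genes were called in this comparison: 0% of all genes were called higher, 0.0724% lower and 0.0298% as DEGs. At an unadjusted p below 0.05 there were 2 of the 10 genes, CHAC1 and DDIT4, beside 2.63% of all genes. CHAC1 had 29.1 and 20.7 CPM, both below WT, with a log2 fold change of -0.92 (SE 0.270, interval -1.5 to -0.34, unadjusted p = 0.00436 from the edgeR fit, FDR 1). DDIT4 had 7.40 and 5.72 CPM, also both below WT, with a log2 fold change of -1.27 (SE 0.458, interval -2.25 to -0.28, FDR 1, edgeR).

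SESN2, at 52.2 and 40.6 CPM, and TRIB3, with log2 CPM of 3.34 and 3.44 beside 3.93 and 3.94 in WT, were below WT in both deleted libraries, with log2 fold changes of -0.54 (interval -1.10 to 0.03) and -0.55 (interval -1.14 to 0.04). ATF4 was lower by less, at 351 and 322 CPM (-0.25, interval -0.71 to 0.21), as was PHGDH at 420 and 396 CPM (-0.30, interval -0.78 to 0.19). These 6 genes were below WT in both libraries, beside 20.3% of all genes tested. ASNS had 186 and 142 CPM, PSAT1 358 and 322 CPM, SLC7A11 71.6 and 67.8 CPM and DDIT3 3.93 and 2.54 CPM, and all of these overlapped WT. The log2 interval of SLC7A11 ran from -0.48 to 0.46 and that of PSAT1 from -0.44 to 0.17. The median of the 10 genes was -0.30 and that of all genes -0.02. The comparisons with WT share the WT libraries, so that a high WT value lowers all of them together.

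The knockdown was also compared with the other conditions directly, without WT. Against CHD7 knockout cells, CHAC1 was lower in the knockdown as a DEG (log2 fold change -1.72, SE 0.278, FDR 0.00235, edgeR), and it was the 1 gene of the 10 that was called. It was called lower but not as a DEG without CHD7 knockout replicate 2 (FDR 0.0352) and in the 4 libraries alone (FDR 0.0103). Over all genes, 5.65% were called lower and 3.8% higher in this comparison. Against HERVH element deleted cells, 0 of the 10 genes were called by edgeR and 2 by DESeq2, while 0.686% of all genes were called lower and 0.648% higher by edgeR, and 3.53% lower and 3.16% higher by DESeq2. At an unadjusted p below 0.05 there were 3 of the 10 genes, beside 19.1% of all genes. The CHAC1 difference between the knockdown and the deleted cells was -0.50 (interval -1.09 to 0.10). PSAT1 differed by -0.49 (SE 0.143, FDR 0.102, edgeR), and both knockdown libraries lay below both deleted libraries. TRIB3 lay above them, by 0.90 on the log2 scale (SE 0.275, FDR 0.113, edgeR).

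Within each condition the 10 genes tended to differ between replicates in the same direction. In WT, 9 of the 10 genes were higher in replicate 1, and in HERVH element deleted cells also 9. In CHD7 knockout cells 9 were higher in replicate 2, and in the knockdown 8. Of all genes, 47.4% to 51.1% were higher in replicate 1 in each condition. The mean log2 CPM of the 10 genes, each relative to its own mean over the 8 libraries, was 0.401 and 0.080 in the WT replicates, 0.063 and 0.504 in CHD7 knockout, -0.607 and -0.047 in the knockdown and -0.069 and -0.325 in HERVH element deleted cells. The spread within a condition was thus of about the size of the differences between conditions. Medium, density and time of harvest of each library are not given in the sources used here, and their part in this was not tested.

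**Figure D4:**
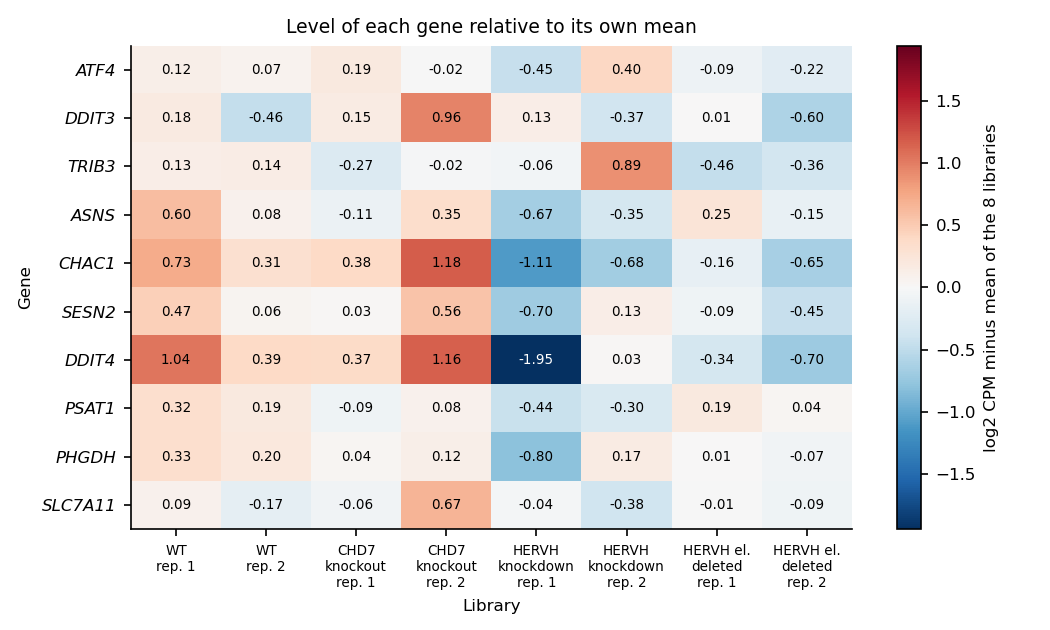
Log2 CPM of each gene (rows) in each library (columns) minus the gene's mean over the 8 libraries, in colour and as numbers. Replicate 1 of the HERVH knockdown is low for 9 of the 10 genes, and replicate 2 of CHD7 knockout is above the mean for 8.

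Over the 8 libraries, the log2 CPM of the 45 pairs among the 10 genes had a median Pearson r of 0.52, from -0.35 to 0.96. These correlations are descriptions, since the libraries share groups, depth and GC trends. SESN2 and DDIT4, both restraints on mTORC1, followed each other with r = 0.96, and CHAC1 and DDIT4 with r = 0.91. The r of ATF4 mRNA with the other genes varied. It was 0.80 for PHGDH, 0.70 for DDIT4, 0.69 for SESN2 and 0.62 for TRIB3. It was lower for CHAC1 (0.39), ASNS (0.30), PSAT1 (0.17), DDIT3 (-0.08) and SLC7A11 (-0.25). Of 12694 other genes expressed above a mean log2 CPM of 2, those most like the mean of the 10 genes over the 8 libraries were GRIN2D (r = 0.988), TDRP (0.987), AARS1 (0.977), ENSG00000260539 (0.976) and ENO2 (0.973). AARS1, the alanyl-tRNA synthetase, had log2 fold changes of -0.38 in the knockdown (FDR 0.193, edgeR), -0.01 in CHD7 knockout and -0.24 in HERVH element deleted cells.

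Further genes of the pathway and genes of other stress branches were described by 9 lists. With the 10 genes these made 105 genes, of which 104 were tested. In the knockdown, 1 of the 104 rose and 4 fell in edgeR, beside 0.618% and 1.53% of all genes, and DESeq2 called 3 higher and 14 lower of 101, beside 2.73% and 4.63% of all genes. The counts at an unadjusted p below 0.05 given for the lists stand beside 19% of all genes in this comparison. Among the kinases of eIF2 and the subunits of eIF2 and its exchange factor eIF2B, 0 of 12 genes were called by edgeR (4 at an unadjusted p below 0.05) and 1 by DESeq2. EIF2B4 had the highest log2 fold change there (0.61, FDR 0.0816, edgeR) and EIF2AK1, the haem-regulated kinase, the lowest (-0.38, FDR 0.190). Among secreted and signalling targets of ATF4, 1 of 12 fell. This was STC2, a secreted glycoprotein, which had 142 and 82.2 CPM in WT and 57.4 and 55.9 CPM in the knockdown (log2 fold change -0.99, FDR 0.0421, edgeR). It was not called without WT replicate 1 (FDR 0.576) or with the 4 libraries alone (FDR 0.134).

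Among other genes of serine, glycine, one-carbon and proline synthesis, 0 of 11 were called in the knockdown by edgeR (4 at an unadjusted p below 0.05) and 3 by DESeq2, all lower. ALDH1L2, a mitochondrial folate enzyme, was lowest at -1.13 (FDR 0.111, edgeR) and SHMT1, the cytosolic serine hydroxymethyltransferase, highest at 0.08. Among amino acid transporters, 1 of 9 fell: SLC38A2, a carrier of small neutral amino acids, had 767 and 678 CPM in WT and 500 and 402 CPM in the knockdown (log2 fold change -0.68, FDR 0.0357, edgeR). This call was lost without either WT replicate (FDR 0.394 without replicate 1 and 0.0759 without replicate 2) and with the 4 libraries alone (FDR 0.194). All 12 cytosolic aminoacyl-tRNA synthetases had a negative log2 fold change, from -0.63 for CARS1 to -0.01 for NARS1, and 0 of the 12 were called by edgeR (6 at an unadjusted p below 0.05) and 2 by DESeq2. Of all genes tested, 47.1% had a negative value.

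Lists of other stress branches were examined alongside. The list of the IRE1 and ATF6 branches of the unfolded protein response had 0 of 16 genes called in the knockdown by edgeR (4 at an unadjusted p below 0.05) and by DESeq2, and a median log2 fold change of 0.06. Mitochondrial stress relay genes and chaperones had 0 of 7 called by edgeR (0 at an unadjusted p below 0.05) and by DESeq2, with values from -0.05 for DELE1 to 0.35 for LONP1. Of 8 targets of the oxidative stress factor NRF2, 1 rose. NQO1, a quinone reductase, had 17.9 and 20.8 CPM in WT and 50.8 and 55.9 CPM in the knockdown, both above WT, and was a DEG (log2 fold change 1.46, SE 0.198, FDR 0.00572, edgeR). It was not called without WT replicate 1 (FDR 0.104), and it was called but not as a DEG without WT replicate 2 (FDR 0.0261) and in the 4 libraries alone (FDR 0.0355). The median of the NRF2 list was 0.48, and 7 of its 8 genes had positive values, beside 12415 of the 23474 genes tested. Its genes SRXN1 and OSGIN1 had at most 15 counts in any library. DESeq2 gave an FDR to 6 of the list and called 2 higher, HMOX1 and NQO1. Of the 7 tested partner and feedback factors of ATF4, 0 were called in the knockdown by edgeR (4 at an unadjusted p below 0.05) and 2 by DESeq2, both lower.

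In CHD7 knockout cells, 2 of the 104 genes rose and 1 fell in edgeR, beside 1.19% and 0.613% of all genes. DESeq2 called 3 higher and 3 lower of 102, beside 2.24% and 1.35% of all genes. PPP1R15B, the constitutive partner of the eIF2 phosphatase, had 224 and 196 CPM in WT and 357 and 354 CPM in the knockout (log2 fold change 0.76, FDR 0.0134, edgeR). ATF6, a sensor of unfolded proteins, had 44.8 and 35.1 CPM in WT and 69.1 and 78.4 CPM in the knockout (0.89, FDR 0.0328, edgeR). Both lie on the long arm of chromosome 1, where the 548 genes tested had a median log2 fold change of 0.52 in these cells, compared with -0.06 for the 732 genes nearer the start of the chromosome. Neither was called when any 1 of the 4 libraries was left out. SESN2 and PHGDH are among the 732 genes nearer the start of chromosome 1.

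SLC7A5, a leucine transporter that exchanges glutamine for large neutral amino acids, had 542 and 619 CPM in WT and 194 and 225 CPM in CHD7 knockout cells. It fell as a DEG (log2 fold change -1.47, SE 0.210, FDR 0.00267, edgeR), and without CHD7 knockout replicate 1 the FDR was 0.0639. In HERVH knockdown and HERVH element deleted cells, its log2 fold changes were 0.26 and -0.20, with FDRs of 0.529 and 1. In HERVH element deleted cells, 0 of the 104 genes were called (edgeR and DESeq2). Of all genes, 0% were called higher by either, and 0.0724% lower by edgeR and 0.0852% by DESeq2. At an unadjusted p below 0.05 (edgeR) there were 6 of the 104, beside 2.63% of all genes.

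**Figure D5:**
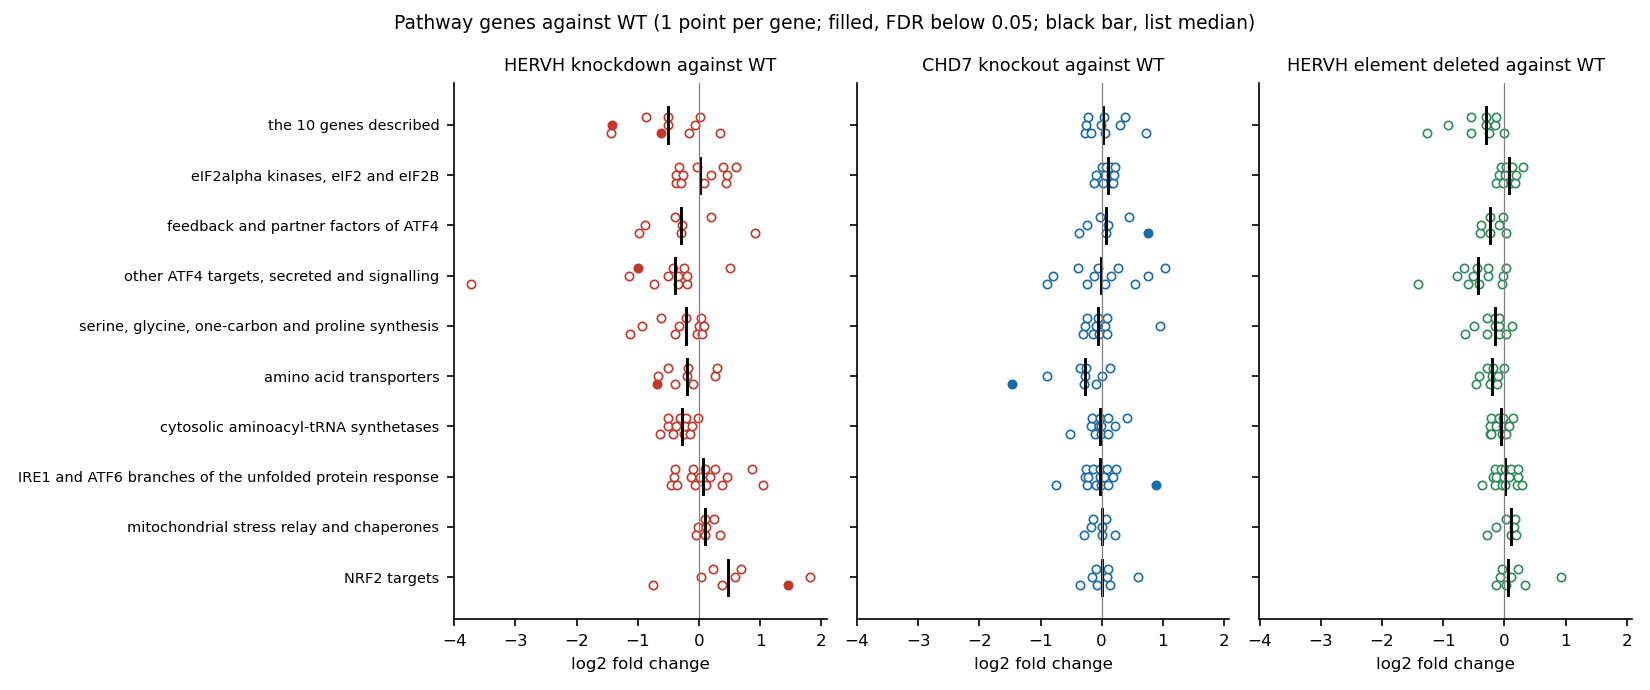
Log2 fold change against WT (x axis) of the genes tested in the 10 genes described and in 9 further lists of the pathway and of other stress branches (y axis), 1 point per gene, filled where the FDR was below 0.05, with a black bar at each list's median. In the knockdown the median is -0.50 for the 10 genes and 0.48 for the NRF2 targets.

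Markers of other cell types moved with some conditions. In HERVH knockdown libraries the summed level of 6 neural markers was 418 to 758 CPM, compared with 289 to 322 in WT and 492 to 627 in CHD7 knockout cells. Of the 4 neural markers tested, NES (log2 fold change 0.96, FDR 0.0474, edgeR) and TUBB3 (1.65, FDR 0.0366) rose in the knockdown, and neither was called without either WT replicate or in the 4 libraries alone. The other neural markers tested, DCX (-0.63, FDR 0.192) and PAX6 (-0.45, FDR 0.658), were below WT in both knockdown libraries. NES alone had 396 and 731 CPM there, so that the sum is mostly NES. The 5 endoderm markers summed to 12.0 to 12.2 CPM in the knockdown and 2.12 to 5.80 CPM in WT. The knockdown sum was mostly FOXA2, at 10.3 and 9.69 CPM. Of the 2 endoderm markers tested, 0 were called in the knockdown by edgeR and 1, FOXA2, by DESeq2. In CHD7 knockout cells the 5 endoderm markers summed to 1.56 to 2.17 CPM. FOXA2 fell there (-2.64, FDR 0.0317, edgeR), a call lost without either CHD7 knockout replicate or WT replicate 2. AFP, the other endoderm marker tested, was above WT in both CHD7 knockout libraries (0.92, FDR 0.619, edgeR). Values of DCX, PAX6 and AFP were added after they were seen, to complete their lists. Sums over 5 mesoderm markers were 1.68 to 3.18 CPM and over 5 trophoblast or amnion markers 2.85 to 8.18 CPM across all libraries. Fibroblast markers summed to 441 to 589 CPM in WT and 447 to 701 CPM in the knockdown. Most of the WT sum was THY1 (356 and 237 CPM), and COL3A1 and DCN had 0 counts in the knockdown. Of the 4 fibroblast markers tested, 0 were called in the knockdown (edgeR), from -0.33 for THY1 to 1.26 for COL1A1. The part of these markers in the values of the 10 genes was not tested.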

How the data were processed

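RNA-seq of H9 hESCs was used, with 8 libraries in 4 groups of 2, grouped by their labels. Libraries were strand-specific and made after depletion of rRNA. Alignment by the authors was to hg19, using STAR with Ensembl genes, and counting used HTSeq-count. The deposited values are raw read counts per gene, as whole numbers. Tool versions and the strand setting of the counting are not given in the sources used here. Reads outside genes (34.9% to 42.5%) and ambiguous reads (3.81% to 4.75%) were left out.

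Counts were scaled by TMM and filtered with filterByExpr in edgeR 4.0.16 (R 4.3.3, limma 3.58.1). Groups were compared by the quasi-likelihood test, with every library in the model, group as the factor and 4 residual degrees of freedom. The test also borrows information on the spread from the other genes, and the intervals use the larger degrees of freedom that result. The study's DEG rule was an FDR below 0.01 and at least a 2-fold change. Here "rose" and "fell" mean an FDR below 0.05. CPM used TMM library sizes, log2 CPM a prior count of 2. Symbols came from a name table, exon lengths and GC content from GENCODE on GRCh37, which placed 96.1% of genes, and promoters from RefSeq. Intervals are 95% intervals of the edgeR fit. The procedure was tested on simulated data. Alternatives were RLE scaling, DESeq2 1.42.0, fits of the 4 libraries compared, no filter or at least 1 CPM in 2 libraries, a replicate block, GC correction by loess (span 0.3, GC known for 96.9% of genes tested) and leaving out each replicate.

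The text names the 10 genes, CHD7, genes of the other lists with an FDR below 0.05 against WT (else the highest and lowest in the knockdown; for marker lists, called genes), and the 5 genes with the most similar pattern. The 10 genes, the lists and the tests were chosen with earlier results of these data known.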

Additional observations from a re-analysis of the deposited data

How the results depend on the processing

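Groups of 2 allowed no search for outlying samples, and low counts limit DDIT3. In HERVH knockdown against WT, 2 of the 10 genes were called, compared with 1 in a fit of the 4 libraries, 5 without a filter on low counts, 6 with GC correction and 0 to 7 when 1 replicate was left out. DEGs were 0, compared with 1 by DESeq2, 2 without a filter, 1 with GC correction and 0 to 4 when 1 replicate was left out. The genes called over the whole table ranged from 4 (without WT replicate 1) to 4084 (without knockdown replicate 1) around 504, and DEGs from 2 to 825 around 51. For CHD7 knockout they ranged from 82 to 1285 around 424 (DEGs 26 to 368 around 134), and for HERVH element deleted cells from 6 to 43 around 17 (DEGs 5 to 30 around 7). CHAC1 was called in 11 of 12 alternatives and PSAT1 in 9 in the knockdown, and 0 of the 10 genes were called in CHD7 knockout cells under any. In HERVH element deleted cells, 2 genes were called and 1 was a DEG without a filter, and the median ranged from -0.49 to -0.20 without 1 replicate. Against CHD7 knockout, 1 gene was called in the knockdown, compared with 2 under RLE scaling or DESeq2, 5 without a filter, 3 with GC correction and 1 to 7 without 1 replicate. DEGs there were 1, compared with 0 in the 4 libraries, 2 without a filter or with GC correction and 0 to 3 without 1 replicate. Against HERVH element deleted cells, 0 were called, compared with 2 by DESeq2, 3 without a filter and 0 to 4 without 1 replicate, with 0 to 1 DEGs. The highest count for CHD7 knockout, 1285, came from the fit of only the 4 libraries compared. The causes of the differences between settings were not tested.

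When a replicate block was added, the knockdown still had 2 of the 10 genes called against WT, with 639 rather than 504 of all genes. Against CHD7 knockout 2 rather than 1 were called. Block and GC correction together gave 5 genes and 1 DEG against WT, and 3 genes and 2 DEGs against CHD7 knockout. Samples with the same number correlated by -0.0693 to 0.119, so the number was taken as a name and not as a pairing.

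Log2 fold changes that turned sign were near 0 or rested on 1 replicate. In the knockdown, DDIT3 was -0.01 in the 4 libraries and 0 without a filter, and SLC7A11 0.02 with GC correction, with or without the block. Without 1 replicate, ATF4 ranged from -0.55 to 0.25, DDIT3 from -0.33 to 0.38 and TRIB3 from -0.20 to 0.71. In CHD7 knockout, ATF4 was 0 under RLE scaling, DESeq2 and no filter, 0.01 with the 1 CPM filter and 0.09 with GC correction, with or without the block, and DDIT4 -0.02 with the block. Without 1 replicate, ATF4 ranged from -0.10 to 0.11, ASNS from -0.47 to 0.08, CHAC1 from -0.13 to 0.66, SESN2 from -0.23 to 0.29, DDIT4 from -0.37 to 0.45 and SLC7A11 from -0.01 to 0.71. In HERVH element deleted cells, SLC7A11 was 0 under RLE scaling and DESeq2 and 0.01 with the 1 CPM filter. Without 1 replicate it ranged from -0.13 to 0.15, DDIT3 from -0.50 to 0.24 and ASNS from -0.54 to 0.01.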
